A study of Mus musculus with 7 samples.

Results

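Myoglobin (Mb) and carbonic anhydrase 3 (Car3) are 2 abundant soluble proteins of slow, oxidative muscle fibres, and their transcripts were followed here across 7 soleus samples of wild-type 129/SV mice. The members are the spots whose gene symbol in the array's annotation is Mb or Car3. Each gene had 1 spot, 10N for Mb and 23N for Car3, so they are 2 of the 203 genes measured. The soleus lies in the calf and is rich in slow fibres. All 7 samples were cage controls, with no treatment group and no contrast between conditions; the labels used here give no age or sex. Replicate 5 carries the code C16 in its title and the others C15, and the meaning of these codes is unknown here. Apart from the differing titles, nothing says whether separate animals were sampled. The p-values below therefore concern only pairings of values among these samples, whose spread may be technical.

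Myoglobin is a haem protein that binds oxygen in the cytosol of heart and striated muscle and eases its movement to the mitochondria. Carbonic anhydrases interconvert carbon dioxide and bicarbonate. The Car3 isoform has a low activity in this reaction, and it is abundant in slow muscle fibres, fat and liver. Myh7 encodes the slow myosin heavy chain of type I fibres, and Myh2, Myh1 and Myh4 encode the fast chains IIa, IIx and IIb. The questions were how large the Mb and Car3 signals were in each sample, how far their ratio varied, and whether either followed Myh7.

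RNA from cryosections of the muscle belly was copied into radioactive cDNA with primers specific to the genes on the array. Values are percents of an array's summed signal, a sum that leaves out the 28S ribosomal RNA spot and the unnamed spot 1M. This sum lay between 99.9% and 100.02% in the 7 arrays. Primers and probes differ between spots, so signals of different genes are not ranked as transcript amounts. A floor was set for each array at its 10th percentile, from 0.02% to 0.13%, and a gene was called above the floor when it exceeded 2 times that value on all arrays. This held for 44 of 203 genes, Mb and Car3 among them. The 28S spot is 1 of the 44, and so also of the 43 other genes used below. The arrays differed in more than the members: the 28S signal ran from 3.88% to 21.6% and the array median from 0.06% to 0.20%. Replicates 3 and 4 were the most alike (Pearson's r = 0.991 over the 44 genes, on the log2 scale) and 42 of their deposited values were identical. For replicates 2 and 6 the number was 64 and r was 0.976. Both of these arrays had a floor of 0.06% and a median of 0.10%. Deposited values usually have 4 decimals, so low signals can be equal by rounding, and the part of this was not tested. Each of the 7 was treated as a sample of its own.

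The regions upstream of Mb and Myh7 are shown because the relation of these transcripts is a question of the data. They are the 250 bases before an annotated RefSeq start in build GRCm38.p6, on the minus strand, at chr15:77022788-77023037 for Mb and chr14:54994627-54994876 for Myh7. Only starts close to the most downstream annotated start were considered, and the most upstream of these was used. Car3 is named only. Sequences run 5′ to 3′, and capitals mark matches on either strand to CANNTG (the E-box, bound by myogenic factors), CCCCACCCC (the CCAC box) or CATTCC (the MCAT element).
Mb: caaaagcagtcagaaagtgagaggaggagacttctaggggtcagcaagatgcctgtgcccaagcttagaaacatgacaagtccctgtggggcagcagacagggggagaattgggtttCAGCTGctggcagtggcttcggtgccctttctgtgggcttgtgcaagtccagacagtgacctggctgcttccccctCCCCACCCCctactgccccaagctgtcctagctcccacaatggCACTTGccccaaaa
Myh7: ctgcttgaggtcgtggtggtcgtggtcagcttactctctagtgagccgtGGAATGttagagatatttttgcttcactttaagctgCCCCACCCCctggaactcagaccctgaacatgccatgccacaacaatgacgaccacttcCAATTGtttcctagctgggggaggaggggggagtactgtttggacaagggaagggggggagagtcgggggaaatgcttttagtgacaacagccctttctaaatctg

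The window of Mb held 2 E-box matches, 1 CCAC box match and 0 MCAT matches. That of Myh7 held 1 match to each of the 3 motifs. Among 32817 RefSeq windows of the same length, 66.2% held an E-box match, 5.61% a CCAC box match and 12.6% an MCAT match. No motif overlapped another in these windows. A match is a description of the letters, and the array does not tell which start a transcript used.

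On the deposited scale, Mb gave a strong and rather even signal. It stood at 8.03%, 9.79%, 7.14%, 8.21%, 8.41%, 8.42% and 6.72% of the summed signal in replicates 1 to 7. Replicate 2 was the highest and replicates 7 and 3 the lowest, while the other 4 lay between 8.03% and 8.42%. The mean was 8.10% ± 0.991 (SD, n = 7), with a coefficient of variation of 12.2% and a highest value 1.46 times the lowest. On the log2 scale its SD was 0.18, the third smallest of the 44 genes above the floor, whose median was 0.34. Mb was among the 6 brightest of the 223 spots on every array, 3rd in replicate 1, 4th in replicate 2 and 6th in the other 5.

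Car3 gave a lower signal that, on the deposited scale over all 7 samples, varied more in proportion. Its values were 1.37%, 1.33%, 1.12%, 1.0%, 1.64%, 1.71% and 1.50% in replicates 1 to 7. Replicates 3 and 4 were the lowest and replicates 5 and 6 the highest. The mean was 1.38% ± 0.260 (SD, n = 7), the coefficient of variation 18.8%, and the highest value 1.71 times the lowest. The log2 SD was 0.28, 13th smallest of the 44 genes, and 0.16 without replicates 3 and 4. Without those replicates the log2 SD of Mb was 0.19, so the order of Mb and Car3 turned. It also turned under some other scalings, given in the last section. Car3 was the 17th brightest spot on all 7 arrays, although the spots next to it changed: desmin was 16th in 3 arrays, and Cox4i1, Cox5b or the unnamed spot 1C in the others. The distance to the next spots was not wide. The 16th spot was from 1.02 to 2.10 times Car3, and Car3 was from 1.01 to 1.43 times the 18th. In replicate 1 the Car3 value is given to 6 decimals, as is that of 1 other spot, where 4 are usual; the reason is unknown here.

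**Figure D1:**
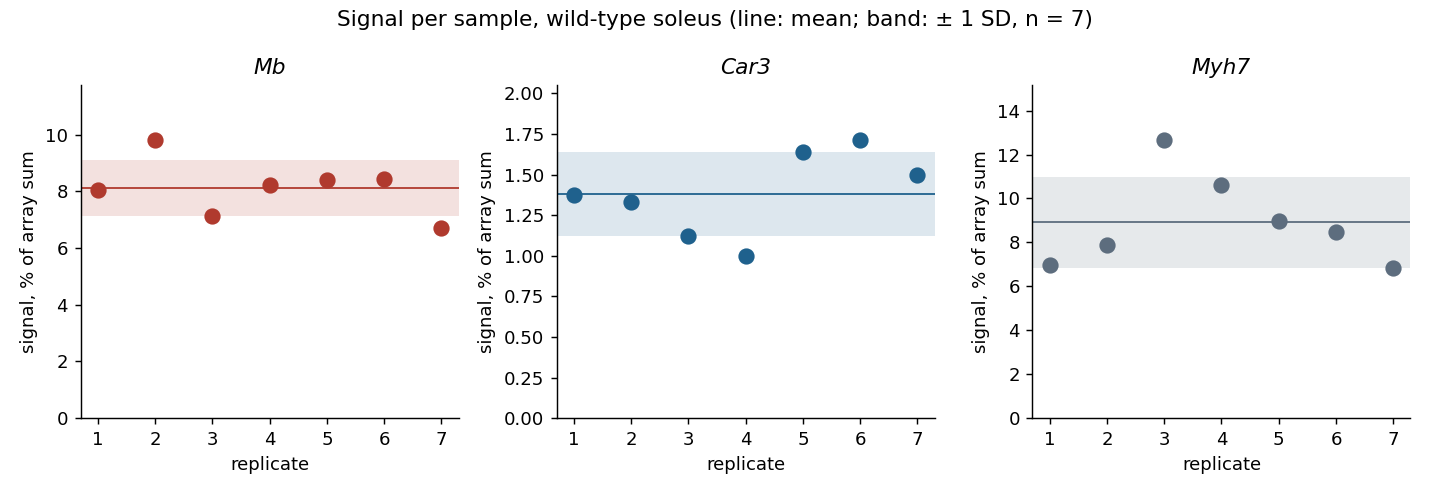
Signal of Mb, Car3 and Myh7 (y axes, percent of the summed signal of the array, each from 0) in replicates 1 to 7 of wild-type soleus (x axes), with 1 point per sample, a line at the mean and a band of 1 SD on either side. Replicates 3 and 4 are the highest in Myh7 (12.6% and 10.6%) and the lowest in Car3 (1.12% and 1.0%), and Mb lies between 6.72% and 9.79%.

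The ratio of Mb to Car3 within an array does not depend on how the array as a whole was scaled. The Mb signal was 5.84, 7.36, 6.38, 8.21, 5.13, 4.92 and 4.48 times the Car3 signal in replicates 1 to 7. The ratio was highest in replicates 4 and 2 and lowest in replicates 7, 6 and 5, with the highest 1.83 times the lowest. On the log2 scale it averaged 2.57 ± 0.32 (SD, n = 7). Because primers and probes differ, the size of the ratio does not give the ratio of transcripts, and only its variation between samples can be read. Among the 43 other genes above the floor, ordered from the most constant ratio to Mb, Car3 came 12th. In the same order for Car3, Mb came 13th. The most constant partners of Mb were the cytochrome oxidase subunits Cox4i1 and Cox8a, with SDs of the log2 ratio of 0.15 and 0.16. Those of Car3 were the insulin-responsive glucose transporter Slc2a4, at 0.18, and Hadh, an enzyme of beta-oxidation, also at 0.18. These partners were named after their values were seen.

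Mb and Car3 were not shown to be high or low together. Pearson's r of their log2 signals was 0.0950 (95% interval from -0.709 to 0.791; exact permutation two-sided p = 0.840, 0.841 after adjustment, n = 7). Spearman's rank correlation, rho, was 0.214 (exact permutation p = 0.662, adjusted p = 0.772). Without replicates 4 and 6, the samples farthest from the median Car3 signal, r was 0.124, and without replicate 3 alone it was -0.117. Bright-gene scaling, which sets each array to the same geometric mean over 37 other genes above the floor, gave -0.0627. Scaling every array to the same median gave 0.898, which passed (adjusted exact permutation p = 0.0111). That scale moves both genes of an array together, and the median r of Mb with the 43 other genes above the floor was then 0.900. The pass is therefore not particular to Mb and Car3. The interval is wide, so a strong relation of either sign is within what 7 samples allow. These p-values rest on all pairings of the samples and are adjusted by Benjamini-Hochberg over the 7 relations tested, of which 0 passed an adjusted p of 0.05 and 0 had an unadjusted p under 0.05.

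Myh7, the slow heavy chain, stood at 6.97%, 7.87%, 12.64%, 10.60%, 8.98%, 8.48% and 6.82% in replicates 1 to 7. Replicates 3 and 4 stood highest, and the mean was 8.91% ± 2.09 (SD, n = 7). It was the only one of 8 listed slow fibre genes on the array, so the slow fibre content of a sample is represented by this spot alone. Within an array, the Mb signal was from 0.565 times Myh7 in replicate 3 to 1.24 times in replicate 2. The Car3 signal was from 0.0886 times Myh7 in replicate 3 to 0.220 times in replicate 7. The log2 SD was 0.38 for Mb to Myh7 and 0.54 for Car3 to Myh7, against 0.32 for Mb to Car3; these SDs were not tested against each other.

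Mb showed no detectable relation to Myh7. Pearson's r was -0.0965 (95% interval from -0.792 to 0.708; exact permutation p = 0.841, adjusted p = 0.841) and rho was 0.107 (exact permutation p = 0.840, adjusted p = 0.840). Without replicates 3 and 4, the samples farthest from the median Myh7 signal, r was 0.563. It was 0.0657 without replicate 2 alone, 0.363 without replicate 3 alone and -0.622 without replicate 7 alone. The sign also depended on the scale: r was 0.644 when each array was scaled on its bright genes (adjusted exact permutation p = 0.499). Scaled to equal array medians it was 0.931 (adjusted exact permutation p = 0.0111). Equal medians moved whole arrays by between -0.92 and 0.82 log2 units, against an SD of 0.18 for Mb, so every bright gene shifts with the array under that scale.

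Car3 was lowest in the samples with the most Myh7, and this did not pass the test. Pearson's r was -0.599 (95% interval from -0.932 to 0.280; exact permutation p = 0.155, adjusted p = 0.488) and rho was -0.429 (exact permutation p = 0.354, adjusted p = 0.554). The negative value rested on replicates 3 and 4: without them r was 0.620. With bright-gene scaling r was -0.0814, and with equal medians 0.838 (adjusted exact permutation p = 0.0197). All values of an array add up to a fixed sum, of which the 5 genes averaging over 5% (Gapdh, Aldoa, Myh7, Mb and Cox6a2) held from 33.7% to 54.0%. A rise in any of these lowers the share of the rest by construction, and the part of this in the relation was not tested.

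**Figure D2:**
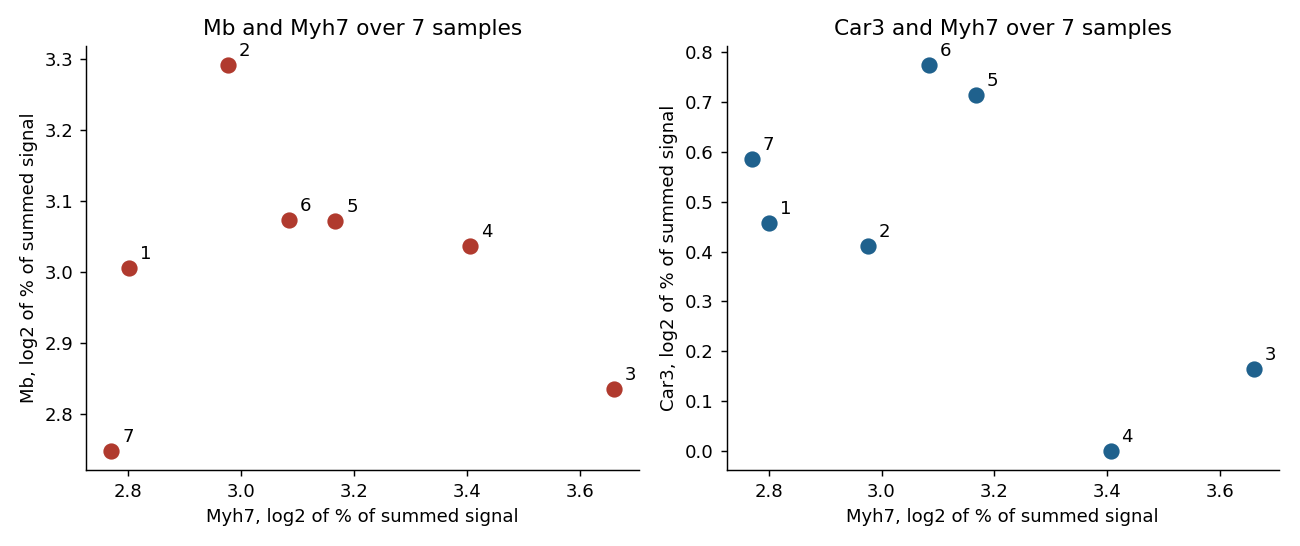
Log2 signal of Mb (left) and Car3 (right) on the y axes against log2 signal of Myh7 on the x axes, both as log2 of the percent of the summed signal, with 1 numbered point per replicate. Replicates 3 and 4 lie apart on the right, and r is -0.0965 for Mb and -0.599 for Car3 with them, and 0.563 and 0.620 without them.

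The ratio of Mb to Car3 was compared with Myh7 and with the balance of slow to fast heavy chains. Against Myh7, r was 0.478 (95% interval from -0.430 to 0.905; exact permutation p = 0.279, adjusted p = 0.488) and rho 0.536 (exact permutation p = 0.236, adjusted p = 0.554). Without replicates 3 and 4 it was 0.0445. Myh7 was from 3.95 times the geometric mean of Myh2, Myh1 and Myh4 in replicate 7 to 6.69 times in replicate 3. The log2 ratio of Mb to Car3 had r = 0.560 with this balance (95% interval from -0.333 to 0.924; exact permutation p = 0.195, 0.488 after adjustment). By rank, Spearman's rho reached 0.714 (exact permutation p = 0.0881, adjusted p = 0.554). Leaving out replicates 3 and 7 had r = 0.450. Neither side of this last relation depends on a common factor applied to the array. Quantile normalization, which is no common factor and leaves Car3 with no spread, turned both relations, to -0.466 and -0.680. There Mb has the same value in replicates 3 to 7, as it was 6th on each of those arrays. Both r values therefore rest on how replicates 1 and 2 differ from the rest, and no conclusion is drawn from them. The last relation did not pass the test, and its r stayed between 0.337 and 0.739 when each replicate was left out in turn.

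**Figure D3:**
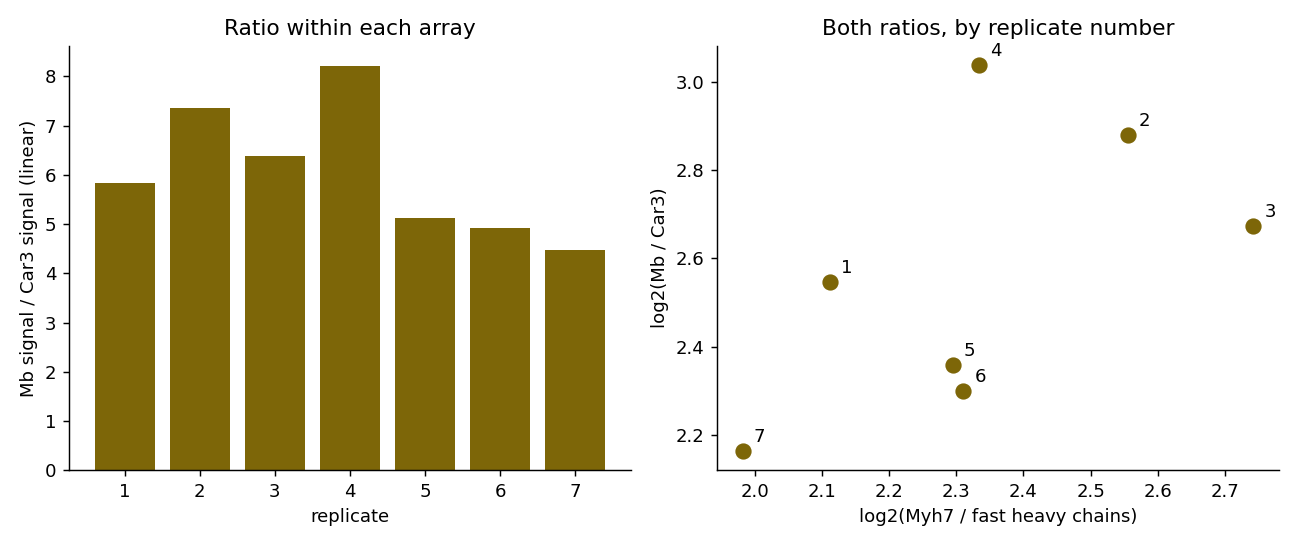
Left, the Mb signal divided by the Car3 signal (linear, bars from 0) in replicates 1 to 7. Right, the log2 ratio of Mb to Car3 (y axis) against the log2 ratio of Myh7 to the mean of the 3 fast heavy chains (x axis), with 1 numbered point per replicate. Replicate 7 is lowest in both ratios, and replicate 4 has the highest ratio of Mb to Car3, 8.21.

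The fast heavy chains were all above the floor, with means of 2.52% for Myh2, 2.41% for Myh1 and 0.890% for Myh4. Against the mean of their log2 signals, Mb had r = -0.525 (95% interval from -0.916 to 0.377; exact permutation p = 0.217, adjusted p = 0.488; rho = -0.429, exact permutation p = 0.354, adjusted p = 0.554). Without replicates 2 and 4 it was -0.217, and without replicate 2 alone it was 0.0915. Car3 had r = -0.388 (95% interval from -0.883 to 0.516; exact permutation p = 0.397, adjusted p = 0.556; rho = -0.393, exact permutation p = 0.396, adjusted p = 0.554). Without replicates 2 and 4 it was -0.340, and without replicate 4 alone it was 0.0589. Without replicates 3 and 4 it was 0.788 (exact permutation p = 0.0667, adjusted p = 0.467). With bright-gene scaling r was 0.342 for Mb and -0.180 for Car3, and with equal medians 0.909 and 0.861 (adjusted exact permutation p = 0.0111 and 0.0149). Mb was from 3.78 to 7.31 times the mean of the fast chains, the highest in replicate 2, where Mb was at its highest and Myh2, Myh1 and Myh4 at their lowest.

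The members and Myh7 were also set against array-wide measures. Over 12 relations of Mb, Car3, their ratio and Myh7 with 28S, spot 1M and the array median, 0 passed after adjustment and 2 had an unadjusted exact permutation p under 0.05. Car3 had r = 0.716 with 28S (exact permutation p = 0.0706, 0.283 after adjustment; rho = 0.500, exact permutation p = 0.267, adjusted p = 0.593), and -0.594 without replicates 3 and 4, where 28S was lowest. Myh7 had r = -0.856 with 28S (exact permutation p = 0.0185, adjusted p = 0.176; rho = -0.714, exact permutation p = 0.0881, adjusted p = 0.529), and -0.0301 without replicates 3 and 4. With the array median Myh7 had r = -0.811 (exact permutation p = 0.0294, adjusted p = 0.176; rho = -0.837, exact permutation p = 0.0254, adjusted p = 0.305), and -0.748 without replicates 1 and 4. For Mb, r was 0.473 with 28S and -0.190 with the array median (adjusted exact permutation p = 0.612 and 0.737). The part of these measures in the relations to Myh7 was not tested.

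On the deposited scale, the pattern of Mb over the samples was most like that of 2 cytochrome oxidase subunits, with Rps29 close behind. Likeness is Pearson's r of log2 signal over the 7 samples, given as a description; its median over the 43 other genes above the floor was 0.0950, with 26 above 0. The highest were the cytochrome oxidase subunits Cox4i1 at 0.682 and Cox5b at 0.677, the ribosomal protein gene Rps29 at 0.650, the fatty acid binding protein Fabp4 at 0.629 and mitochondrial malate dehydrogenase Mdh2 at 0.561. Cox5b ran from 1.53% in replicate 7 to 3.13% in replicate 2, the samples where Mb too was lowest and highest. Cox4i1 ran from 1.71% in replicate 1 to 2.41% in replicate 2. Without replicates 3 and 4, r with Mb was 0.989 for Cox5b, 0.826 for Rps29 and 0.798 for Cox4i1, the 3 highest, and 0.561 for Fabp4 and 0.481 for Mdh2. The lowest were Myh4 at -0.637, the mitochondrial uncoupling protein gene Ucp3 at -0.454 and Myh2 at -0.424. Myh4 ran from 0.690% in replicate 2 to 1.02% in replicate 7, opposite to Mb at both ends. With bright-gene scaling, applied to likeness after the data had been seen, Cox5b, Rps29 and Cox4i1 led again. With equal medians Cox4i1, Rps29 and Pgk1 led, before Cox5b.

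For Car3 the genes at the top depended on replicates 3 and 4. Its median r with the 43 other genes was 0.315, with 29 above 0. The highest were Igfbp6, which binds insulin-like growth factors, at 0.861, Il6st, a receptor subunit for interleukin 6 and related cytokines, at 0.819, the endothelial cadherin Cdh5 at 0.809, Slc2a4 at 0.791 and the glycolytic enzyme Aldoc at 0.783. All 5 had their 2 lowest values in replicates 3 and 4, like Car3 itself. Without these replicates r was 0.588 for Igfbp6, 0.381 for Il6st, 0.0848 for Cdh5, 0.171 for Slc2a4 and -0.445 for Aldoc. The lowest were the growth factor receptor Fgfr2 at -0.701, Myh2 at -0.686 and Myh7 at -0.599; without replicates 3 and 4 they were -0.276, 0.875 and 0.620. The highest were then Des at 0.988, Ttn and the fatty acid dehydrogenase Acadl at 0.968 each, Myh1 at 0.902 and Myh2, over 5 samples. With bright-gene scaling Igfbp6, Aldoc, Slc2a4, Acadl and Il6st led over the 7 samples, and with equal medians Slc2a4, Acadl, Hadh, Aldoa and Ttn.

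**Figure D4:**
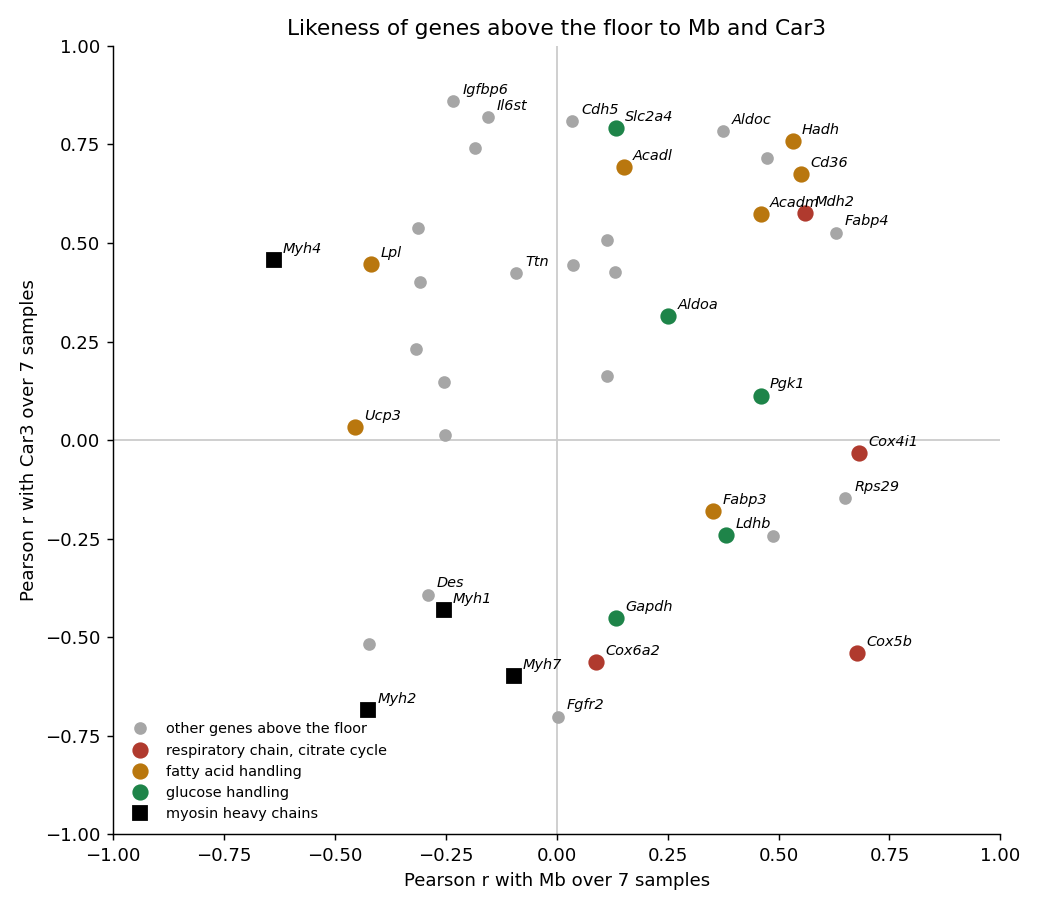
Pearson's r with Mb (x axis) and with Car3 (y axis) over 7 samples for the 42 other genes above the floor, with 1 point per gene, colours for 3 gene lists and squares for myosin heavy chains. Cox4i1 and Cox5b lie far right and below 0 for Car3, Igfbp6, Il6st and Cdh5 lie at the top and between -0.233 and 0.0357 for Mb, and Myh7 lies below 0 on both axes. Without replicates 3 and 4, r with Car3 is 0.620 for Myh7 and 0.0848 for Cdh5.

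The listed metabolic genes are given by their likeness to each member, over the 7 samples and then without replicates 3 and 4. Over the 7 samples, 26 of all 43 other genes above the floor had r above 0 with Mb and 29 with Car3. The medians over all of these genes were 0.0950 and 0.315. Beside these shares, a count from a list this short is a description only. Of the 13 listed genes of the respiratory chain and citrate cycle, 5 were on the array and 4 above the floor (Cox4i1, Cox5b, Cox6a2 and Mdh2). All 4 had r above 0 with Mb, with a median of 0.619. With Car3, 1 of 4, Mdh2 at 0.577, was above 0, and the median was -0.287. Leaving out replicates 3 and 4, the counts were 4 of 4 with Mb (median 0.742) and 2 of 4 with Car3 (median 0.0269), and Mdh2 was at -0.0971 with Car3. Cox6a2, the muscle form of its subunit, ran from 4.31% in replicate 1 to 11.2% in replicate 3 and had r = 0.0893 with Mb and -0.563 with Car3; without those replicates r was 0.686 and 0.354. Of the 7 fatty acid genes above the floor, 5 had r above 0 with Mb (median 0.353) and 6 with Car3 (median 0.574). Hadh gave 0.532 and 0.758, and the fatty acid transporter Cd36 0.551 and 0.675. Lipoprotein lipase, Lpl, gave -0.418 with Mb and 0.446 with Car3. With replicates 3 and 4 left out the list had 4 of 7 above 0 with either member, with medians of 0.402 for Mb and 0.0481 for Car3. There Hadh was at 0.636 with Mb and 0.0481 with Car3, and Cd36 at 0.436 and 0.408. Of the 5 glucose genes above the floor, 5 were above 0 with Mb (median 0.252) and 3 with Car3 (median 0.113), Gapdh giving 0.134 and -0.452. Without those replicates 4 of 5 were above 0 with either member, with medians of 0.461 and 0.361, and Gapdh was at 0.607 and 0.548. Desmin (Des) and titin (Ttn), structural proteins of the fibre, gave -0.291 and -0.0913 with Mb and -0.392 and 0.423 with Car3. With replicates 3 and 4 left out they gave -0.214 and -0.286 with Mb and 0.988 and 0.968 with Car3, so the sign of Des with Car3 turned. Over all 43 other genes above the floor, 18 were above 0 with Mb and 26 with Car3 without these replicates. The medians were -0.0970 and 0.151. All these values are on the deposited scale. With bright-gene scaling the respiratory list kept 4 of 4 above 0 with Mb (median 0.797), and had 2 of 4 with Car3 (median -0.00893). Of the 43 other genes above the floor, 25 were then above 0 with Mb and 21 with Car3, with medians of 0.0917 and -0.00692. With that scale the fatty acid list had medians of 0.0712 with Mb and 0.219 with Car3, and the glucose list 0.686 and 0.00865. With equal medians 42 of the 43 genes were above 0 with either member. These lists share their arrays with the members, and the differences between Mb and Car3 were not tested.

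Other genes of gas handling were hardly represented. Of 17 listed genes for oxygen and carbon dioxide handling, Mb and Car3 were the 2 on the array. Of 10 listed genes of the oxygen response, 6 were on the array, Hif1a, Arnt, Vhl, Hmox1, Vegfa and Epor, and 0 lay above the floor. Hif1a, the oxygen-regulated transcription factor subunit, averaged 0.0886% and was at 0.220% in replicate 1 against 0.040% to 0.090% in the others. Replicate 1 also had the highest floor (0.13%) and the highest array median (0.20%) of all arrays, so this value is not read as a higher Hif1a. Absence of a transcript cannot be read from a value near the floor, and relations with Mb or Car3 were not computed for these genes.

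Markers of other cells were given beside the members because Car3 is also abundant in fat. Of 5 adipocyte markers, Fabp4 and Pparg were on the array, and Fabp4 lay above the floor. Their summed signal ran from 0.430% to 0.700%. Fabp4 had r = 0.629 with Mb and 0.526 with Car3, and 0.561 and 0.124 without replicates 3 and 4. Of 5 endothelial markers, all 5 were on the array, Cdh5 lay above the floor and the summed signal ran from 0.450% to 1.06%; Cdh5 gave r = 0.0357 with Mb and 0.809 with Car3, and -0.697 and 0.0848 without those replicates. Immune (Il1b, Il6) and fibroblast markers (Fn1, Tnc), 2 of 4 each on the array, lay near the floor, and 0 of 2 blood markers were on it. The part of other cell types in the Car3 signal was not tested. In bulk tissue, fewer cells of a type and less RNA per cell cannot be told apart.

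Replicate 5, the sample with the code C16, did not stand apart in the members. Its Mb and Car3 values lay inside the range of the other 6, as did its ratio. Its array did differ elsewhere. Spot 1M stood at 37.0% of the summed signal against 82.5% to 153% in the others, and the floor of 0.02% was the lowest. A code held by 1 sample allows no value within it. Without this replicate r was -0.690 between Car3 and Myh7, -0.107 between Mb and Myh7, and 0.0320 between Mb and Car3.

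**Figure D5:**
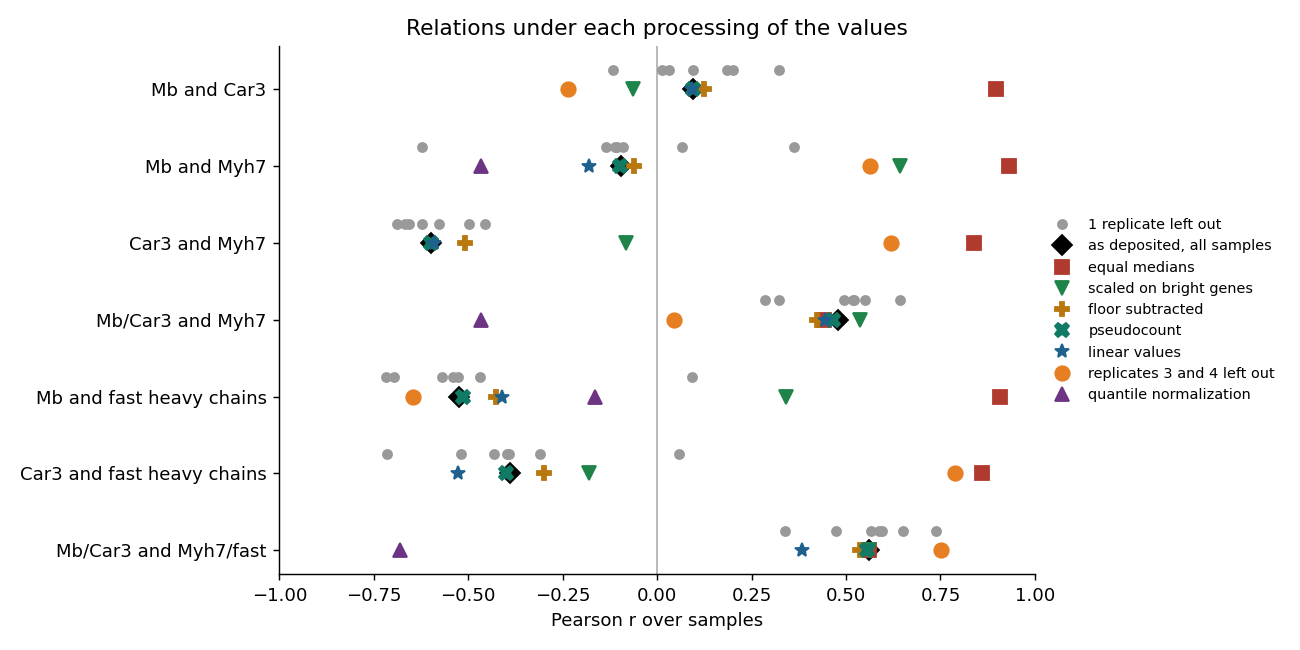
Pearson's r over samples (x axis) for each of the 7 relations (y axis) as deposited and under each other processing of the values, with grey points for 1 replicate left out. The relation of the Mb to Car3 ratio with the Myh7 to fast ratio stays above 0 except with quantile normalization (-0.680). With that processing Mb has 1 value in replicates 3 to 7. Equal medians put the 5 relations of single genes between 0.838 and 0.931.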

How the data were processed

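Soleus muscle of wild-type mice was measured in 7 samples, 1 single-colour array each. The authors deposited 1 linear ratio per spot, per the value table; that it is relative to the summed signal was inferred from the column sums. Per the labels' protocols, 4 micrograms of total RNA were labelled by reverse transcription at 50 °C. Image analysis and background treatment: not given in the sources used here. Gene names came from the platform annotation, in which 205 of 223 spots have a symbol. The array names no genome build. Values have no counts or detection calls, so the number of arrays limits the precision.

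Log2 deposited ratios were used with no pseudocount, because quantile normalization left Car3 with an SD of 0 and so no relation. Relations were tested with exact permutation over all pairings. The test was checked on simulated data with either no link or a very strong one, before adjustment. Whether it would find weaker links was not checked. Intervals use Fisher's z transform. Alternatives were quantile normalization, equal medians, scaling to the geometric mean of 37 bright genes (above the floor, without the members, the heavy chains and 28S), subtraction of the floor, a pseudocount of 0.001, linear values and each replicate left out. Named genes are the members, the heavy chains, the 5 most and 3 least like genes of each member, and list members above the floor; others are said to be chosen after their values were seen or are markers. The members and lists were chosen with earlier results of these data known. Python 3.11.15, numpy 2.4.6 and pandas 2.3.3 were used.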

Additional observations from a re-analysis of the deposited data

Results flagged for a closer look

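The log2 ratio of Mb to the fast heavy chains had 1 sample far from the others. Replicate 2 lay at 7.31 times the mean of the fast chains against 3.78 to 4.98 in the other 6, with a gap to the nearest sample of 0.582 of the whole range. It was the only one of 37 values examined to do so, where about 1 in 20 would among independent normal values. Mb itself was highest in replicate 2, at 9.79%, and Myh2, Myh1 and Myh4 lowest.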

How the results depend on the processing

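Of the 7 relations, 0 passed as deposited, and 5 passed with equal medians; under the other settings 0 passed, with adjusted exact permutation p of 0.317 or more. With equal medians r was 0.898 for Mb and Car3, 0.931 for Mb and Myh7, 0.838 for Car3 and Myh7, 0.909 for Mb and the fast heavy chains and 0.861 for Car3 and the fast heavy chains. On that scale the median r over the 43 other genes above the floor was 0.900 with Mb and 0.857 with Car3, so these values are not particular to the relations. Scaling on bright genes turned the sign of Mb and Car3 (r = -0.0627), Mb and Myh7 (0.644) and Mb and the fast heavy chains (0.342). Quantile normalization turned the Mb to Car3 ratio against Myh7 (-0.466) and against the slow to fast ratio (-0.680). It gave no value for the relations of Car3, which has no spread there, so that the ratio varies with Mb alone. Mb in turn has the same value in replicates 3 to 7 there, so these 2 r values rest on replicates 1 and 2. With replicates 3 and 4 both left out, an alternative chosen after seeing the data, r was -0.235 for Mb and Car3, 0.563 for Mb and Myh7, 0.620 for Car3 and Myh7 and 0.788 for Car3 and the fast heavy chains.

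With 1 replicate left out, r ran from -0.117 to 0.323 for Mb and Car3, from -0.622 to 0.363 for Mb and Myh7 and from -0.690 to -0.456 for Car3 and Myh7. It ran from -0.718 to 0.0915 for Mb and from -0.714 to 0.0589 for Car3 against the fast heavy chains. The Mb level was 9.76% with equal medians. The log2 SD of Mb was 0.23, 0.72 and 0.24 with quantile normalization, equal medians and bright genes, and 0.19 without replicates 3 and 4. That of Car3 was 0, 0.63, 0.19 and 0.16 in the same order. Mb thus varied more than Car3 under these settings, the reverse of the deposited scale over all 7 samples. With quantile normalization this follows from the ranks of the 2 spots alone. A change in an SD was judged against its standard error. Other alternatives, 133 of 160, kept direction and side of the threshold or moved by less than 1 SD. This count is no measure of stability. As 0 relations passed as deposited, keeping the side of the threshold says little. A common factor cannot change the Mb to Car3 ratio or its relation to the slow to fast ratio. The count also holds r values that shrank, as from -0.599 to -0.0814 for Car3 and Myh7 with bright genes. The cause of the changes was not tested. No paired analysis was possible because there is 1 group.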
